A study of Mus musculus with 31 samples.

Results

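The 10 genes described here mark the luminal cells of the mammary gland and the milk that these cells make. They are the milk protein genes Csn3, Csn2, Wap and Lalba, the transcription factor genes Elf5, Gata3 and Foxa1, the steroid receptor genes Esr1 and Pgr, and the prolactin receptor gene Prlr. They were matched by symbol in a deposited table of 39017 genes, and all 10 were found.

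The mammary duct has an outer basal layer of contractile cells and an inner luminal layer. Luminal cells divide into hormone-sensing cells, which carry the oestrogen and progesterone receptors and the pioneer factor Foxa1, and alveolar cells and their progenitors, which carry Elf5 and make milk. Gata3 is needed for the luminal fate as a whole. In pregnancy and lactation prolactin binds Prlr, the kinase Jak2 then activates Stat5, and Stat5 and Elf5 switch on the casein and whey protein genes.

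Poly(A) RNA was sequenced from 31 libraries of murine breast tumours, grown in the breast of syngeneic wild-type mice from either of a pair of models named 4T1 and MT. The design text pairs 4T1 with BALBc mice and MT with FVB mice. 4T1 is a widely used mammary carcinoma line of BALB/c origin, and what MT stands for is not given in the sources used here. In each model the combination arm received poly I:C and phenformin, the poly I:C arm poly I:C and PBS, the phenformin arm saline and phenformin, and the control arm saline and PBS. Poly I:C mimics viral double-stranded RNA and is sensed by Toll-like receptor 3, while phenformin belongs to the biguanides, drugs that block mitochondrial complex I. Each of the 8 groups holds 4 libraries, except 4T1 phenformin, which holds 3, numbered 1, 2 and 4. Doses, times and ages are not given in the sources used here, and the labels name 1 cell line for each model.

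Groups follow the library titles, although the strain and cell line tags name the other model in every library (FVB and MT4788 on titles with 4T1, BALBc and 4T1-537 on titles with MT). Tumour line and host strain change together between the models and cannot be told apart. H2-Ea-ps, a class II histocompatibility pseudogene whose level differs between mouse strains, measured 221.5 to 1010 CPM (library-scaled counts, by TMM) in libraries titled 4T1 and 5.42 to 50.8 CPM in libraries titled MT. Library totals lay between 12160110 and 19849915 counts. The luminal epithelial genes Krt8 and Epcam were present in every library, Krt8 at 357.8 to 765.9 CPM in 4T1 and 81.5 to 402.9 CPM in MT, and Epcam at 187.0 to 647.4 CPM in 4T1 and 182.6 to 963.6 CPM in MT. The labels do not say that the libraries came from separate animals, so the p-values below measure only the spread between libraries.

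Sequences before an annotated start are shown for 4 members because the milk genes ran in different directions between MT libraries and because Foxa1 ran opposite to Csn3. They come from RefSeq (GRCm38.p6), which matched 9 of the 10 members, Csn3 being the exception. The 250 bases before each start were searched on both strands for 3 motifs. TTCNNNGAA is the core letters of the site that Stat5 and related factors bind. AGATAA is a form of the site of Gata3 and its relatives. TGTTTAC is a form of the site of Foxa1 and other forkhead factors, and no motif overlaps another in the windows printed. Among 32851 promoter windows of this length, 7.02% held the STAT letters, 9.99% the GATA letters and 3.17% the forkhead letters. The Csn2 window, on the minus strand of chromosome 5, held the STAT letters 93 bases before the start. It lies mostly inside a first exon of another Csn2 transcript, so only 30 bases around the motif, chr5:87699500-87699529, are printed. The minus-strand windows of Wap (chr11:6638650-6638899) and Lalba (chr15:98482722-98482933) held none of the 3 motifs. The Foxa1 window (chr12:57546122-57546361, minus strand) held the forkhead letters on its other strand, 141 bases before the start. That window lies inside the annotated Foxa1 gene, which extends to 57546916, so its start is not the outermost. Of the windows not printed, Esr1 window 2 held the STAT letters 188 bases before its start. Prlr window 2 held the STAT letters 110 and the forkhead letters 215 bases before its start. The remaining windows searched for the members held none of the 3 motifs. Bases inside annotated exons were left out for Wap, Lalba and Foxa1, while the 30 Csn2 bases printed lie inside the exon named above. Capitals mark the motifs, and a match describes letters, not a bound site.
Csn2: atcacgtagacTTCTTGGAAttgaagggac
Wap: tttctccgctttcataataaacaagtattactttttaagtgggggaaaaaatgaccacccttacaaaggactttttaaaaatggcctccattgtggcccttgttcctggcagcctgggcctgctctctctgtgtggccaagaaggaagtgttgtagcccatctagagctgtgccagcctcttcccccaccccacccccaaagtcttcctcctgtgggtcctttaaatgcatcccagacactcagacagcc
Lalba: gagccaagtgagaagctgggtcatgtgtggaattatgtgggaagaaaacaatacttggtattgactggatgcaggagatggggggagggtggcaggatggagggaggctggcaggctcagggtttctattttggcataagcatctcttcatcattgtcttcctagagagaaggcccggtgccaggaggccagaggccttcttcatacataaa
Foxa1: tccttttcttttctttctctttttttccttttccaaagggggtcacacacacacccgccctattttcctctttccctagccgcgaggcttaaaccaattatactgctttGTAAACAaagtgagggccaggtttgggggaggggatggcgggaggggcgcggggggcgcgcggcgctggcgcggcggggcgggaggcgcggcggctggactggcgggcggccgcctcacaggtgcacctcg

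The models differed in which luminal genes led. Per kilobase of exon, the highest median CPM among the 10 genes was that of Gata3 in the 15 4T1 libraries, at 27.0 CPM per kb, followed by Esr1 at 2.37 CPM per kb. In the 16 MT libraries Csn3 came first at 33.3 CPM per kb, followed by Foxa1 at 16.3 CPM per kb and Gata3 at 12.98 CPM per kb. Csn3, Csn2, Elf5 and Prlr were lower in every 4T1 library than in any MT library, and Esr1 was higher in every 4T1 library. Prlr came close to overlapping, with a highest level of 26.2 CPM in 4T1 and a lowest of 26.9 CPM in MT. The ranges of Wap, Lalba, Gata3, Foxa1 and Pgr overlapped between the models.

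Within a model the order of the groups was mostly not resolved. Ordered by mean level, every MT group stood above every 4T1 group for Csn3, Csn2, Wap, Lalba, Elf5, Foxa1 and Prlr, and below for Gata3 and Esr1, while the models were mixed for Pgr. Csn3, Elf5 and Wap were highest in MT control and Csn2 in MT poly I:C. Neighbours in that order overlapped in their libraries, except at the step between the models for Csn3, Csn2, Lalba, Elf5, Esr1 and Prlr. The other exceptions were Foxa1 and Prlr in 4T1 phenformin, which stood below the next group without overlap.

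**Figure D1:**
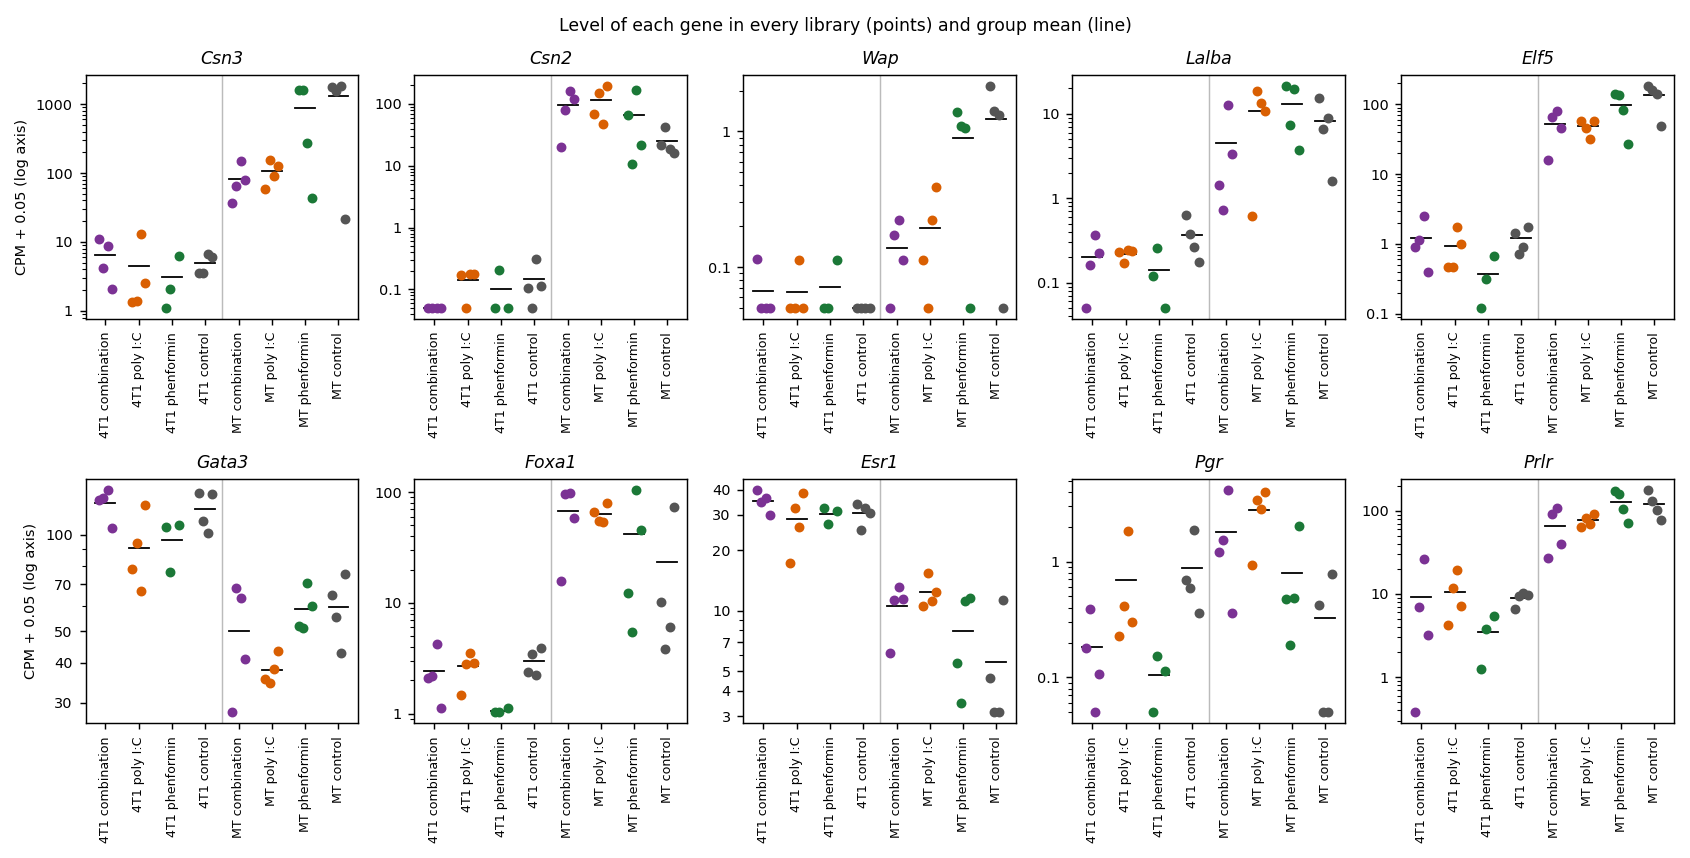
CPM plus 0.05 on a log axis (vertical) of each gene in every library, by group (horizontal); points are libraries and lines group means. Csn3, Csn2, Elf5 and Prlr stand lower and Esr1 higher in all 4T1 groups, left of the grey line, than in the MT groups, and MT control and MT phenformin each spread over a wide range for Csn3 and Foxa1.

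Untreated tumours of the models were compared first. In 4T1 controls 9 of the 10 genes differed from MT controls at a Benjamini-Hochberg adjusted p under 0.05 (edgeR quasi-likelihood test), 2 higher and 7 lower, while 51.9% of all 18956 genes tested differed. The libraries of the groups did not overlap for 7 of the 10 genes, against 45.8% of all genes. An unadjusted p under 0.05 was reached by the same number of members, 9, and by 57.2% of all genes. The median log2 fold change of the 10 genes was -4.21, and that of all genes was close to 0, at -0.0049. In bulk samples fewer cells of a type and less RNA per cell cannot be told apart, which holds for every difference below.

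The milk protein genes were far lower in 4T1 controls. Csn3 (ENSMUSG00000001622, GRCm38 chromosome 5, 87925579 to 87932665, plus strand) encodes kappa-casein, which keeps casein micelles in suspension. It measured 3.55, 3.44, 6.64 and 5.96 CPM in 4T1 control libraries 1 to 4, and 1751, 1568, 1852 and 21.2 CPM in MT control libraries 1 to 4. All 4 MT values lay above all 4 of 4T1, but MT control 4 lay far nearer to 4T1 than to the other MT controls. The log2 fold change was -8.05 ± 1.23 (SE, n = 4 each, edgeR adjusted p = 6.6e-06). Without the MT libraries with Sox10 above 10 CPM, which leaves MT control 4 alone in its group, it was -2.11. Those libraries are also the MT libraries of highest Csn3 (274.3 to 1852 CPM), so a smaller difference was built into that cut.

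Csn2, for beta-casein, lies in the same gene cluster on chromosome 5 (87692624 to 87699630, minus strand). It had 1, 0, 5 and 1 counts in 4T1 controls, or at most 0.266 CPM, against 21.9, 42.8, 18.5 and 16.1 CPM in MT controls (log2 fold change -7.89 ± 1.06, SE, n = 4 each, edgeR adjusted p = 1.95e-06). Of the other caseins of the cluster, Csn1s1 reached at most 0.255 CPM in any 4T1 library and 5.77 to 112.9 CPM in MT, and Csn1s2a at most 0.126 CPM in 4T1 and 0.0635 to 55.5 CPM in MT. Csn1s2b stayed at or below 0.0601 CPM in 4T1 and 0.631 CPM in MT.

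Wap (chromosome 11, 6635482 to 6638637) encodes whey acidic protein, the main whey protein of mouse milk. It had 0 counts in all 4T1 controls and 40, 17, 19 and 0 counts in MT controls. Set against a floor of 3 counts over the 4T1 group, 0.0417 CPM, it was at least 31.1-fold lower in 4T1 controls than the 1.30 CPM pooled over MT controls. The groups touch, since MT control 4 had 0 counts too.

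Lalba (chromosome 15, 98480400 to 98482721), for the alpha-lactalbumin subunit of lactose synthase, measured 0.591, 0.327, 0.212 and 0.124 CPM in 4T1 controls and 15.3, 6.61, 8.77 and 1.55 CPM in MT controls. Its log2 fold change was -4.64 ± 0.98 (SE, n = 4 each, edgeR adjusted p = 3.12e-04), and -2.25 (edgeR adjusted p = 0.193) without the MT libraries of high Sox10.

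Among the transcription factors, Elf5 (chromosome 2, 103411688 to 103450989), the alveolar switch downstream of prolactin, had the smallest adjusted p of the 10 genes. It measured 1.397, 0.655, 0.850 and 1.68 CPM in 4T1 controls and 185.8, 160.3, 143.0 and 49.6 CPM in MT controls, with no overlap. The log2 fold change was -6.88 ± 0.68 (SE, n = 4 each, edgeR adjusted p = 9.02e-09). It remained past the threshold without the MT libraries of high Sox10, at -5.43 (edgeR adjusted p = 9.05e-06).

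Foxa1 (chromosome 12, 57540628 to 57546916) opens chromatin for the oestrogen receptor. It measured 2.31, 3.38, 2.18 and 3.85 CPM in 4T1 controls and 10.04, 3.82, 5.96 and 73.2 CPM in MT controls, and here MT control 4 was the high library. The groups overlapped, and the log2 fold change of -2.98 ± 0.81 (SE, n = 4 each, edgeR adjusted p = 3.25e-03) became -1.19 (edgeR adjusted p = 0.136) without MT control 4. With MT control 4 as the only MT control, it was -4.64 (edgeR adjusted p = 5.5e-06).

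Gata3 (chromosome 2, 9857078 to 9890034) went the other way. It averaged 119.8 ± 17.0 CPM in 4T1 controls and 59.7 ± 14.0 CPM in MT controls (SD, n = 4 each), a log2 fold change of 1.01 ± 0.22 (SE, edgeR adjusted p = 4.84e-04). Without the MT libraries of high Sox10 it was 0.67 (edgeR adjusted p = 0.177).

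Of the receptors, Esr1 (chromosome 10, 4611593 to 5005614), for oestrogen receptor alpha, was higher in 4T1 controls. It measured 34.0, 25.2, 32.4 and 30.7 CPM in 4T1 controls, against 4.57, 3.11, 3.08 and 11.3 CPM in MT controls. That amounts to a log2 fold change of 2.48 ± 0.37 (SE, n = 4 each, edgeR adjusted p = 4.88e-06), and 1.44 (edgeR adjusted p = 7.94e-03) without the MT libraries of high Sox10. Gata3 and Esr1, which are both higher in 4T1, are genes of the hormone-sensing programme, as is Foxa1, which is lower.

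Pgr (chromosome 9, 8899833 to 8968611), the progesterone receptor gene and itself a classical target of the oestrogen receptor, was scarce in both models. It had 12, 10, 34 and 5 counts in 4T1 controls and 7, 0, 0 and 9 counts in MT controls, and missed the threshold (log2 fold change 1.57 ± 0.999, SE, edgeR adjusted p = 0.192). Its level was the lowest per kilobase of all 10 genes in MT.

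Prlr (chromosome 15, 10177238 to 10349180), the receptor through which prolactin starts milk synthesis, measured 6.61, 9.39, 10.2 and 9.56 CPM in 4T1 controls and 177.4, 131.0, 103.0 and 76.4 CPM in MT controls. This came to a log2 fold change of -3.77 ± 0.70 (SE, n = 4 each, edgeR adjusted p = 7.98e-05).

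The lists around these genes were described by their counts of called genes. They hold members themselves, so their counts are not separate from those above. The milk list holds Csn3, Csn2, Wap and Lalba, the progenitor and alveolar list Csn3, Lalba and Elf5, and the prolactin list Prlr and Elf5. The hormone-sensing list holds Esr1, Pgr, Prlr, Foxa1 and Gata3. Of 17 tested milk protein and secretory genes, 11 were lower, Csn3, Csn2, Wap and Lalba among them, and 0 higher in 4T1 controls. The median log2 fold change was -4.64, the value of Lalba, and 51.9% of all genes were called. Wfdc18, a whey-type protein gene of alveolar cells, changed by -7.61, Mfge8, a milk fat globule protein gene, by -2.15, and Csn1s1, alpha-S1-casein, by -9.26. Of 18 luminal progenitor and alveolar genes, 13 were lower, among them the epithelial transcription factor gene Ehf (log2 fold change -7.01), and 1, the integrin gene Itga2, was higher (3.21). The median of that list was -3.08.

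The prolactin signalling list was split, with 6 of 17 tested genes higher and 7 lower and a median log2 fold change of -0.24. Jak2, the kinase on the prolactin receptor, was higher in 4T1 controls, at 598.0 ± 84.3 CPM against 83.0 ± 11.6 CPM in MT controls (SD, n = 4 each), while Id2 changed by -2.83 and Socs2, a feedback inhibitor of the pathway, by -2.93. Of 18 hormone-sensing genes, 3 were higher and 7 lower, among them Prom1 (-3.91), with a median of -0.38. Of 16 luminal structure genes, 7 were higher and 2 lower, with Cldn4, a claudin gene, at 5.53, Prom2 at 3.13 and the protease inhibitor gene Spint1 at 1.92, and a median of 0.92. Fibroblast genes moved with the model as well, with 8 of 12 higher in 4T1 controls and summed levels of 3314 to 5093 CPM there against 663.5 to 1170 CPM in MT controls; their part in the differences was not tested.

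**Figure D2:**
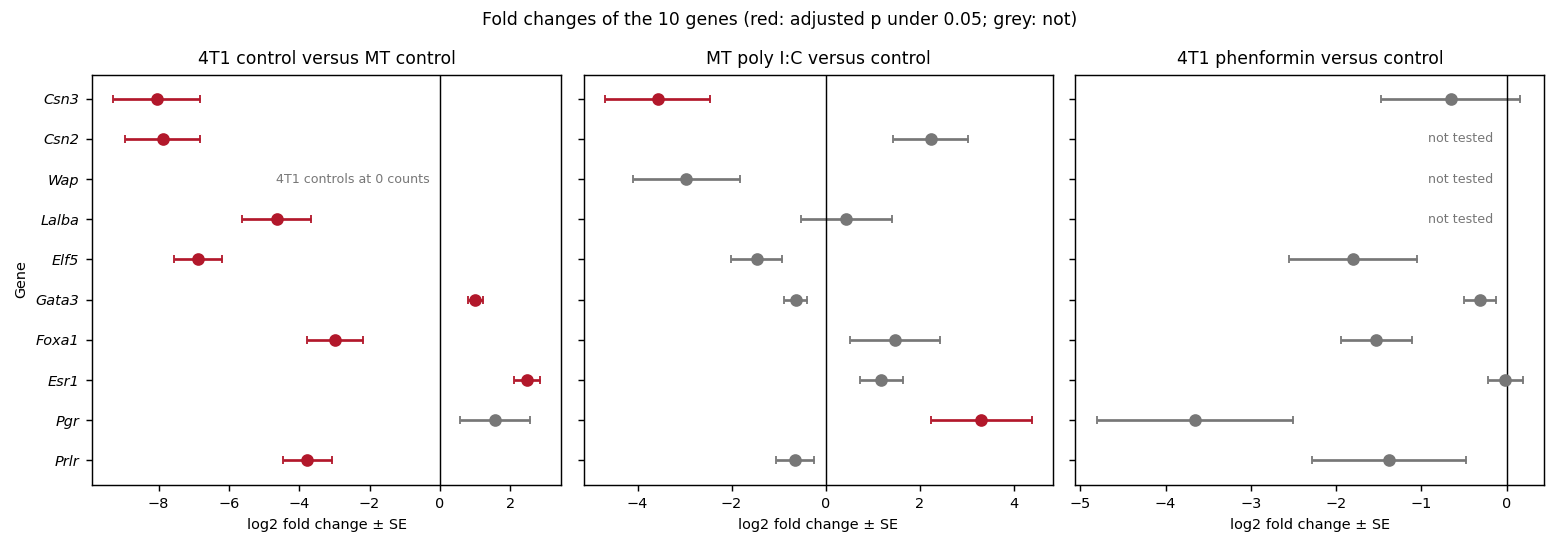
Log2 fold changes (horizontal, ± SE) of the 10 genes in 4T1 controls against MT controls, in MT poly I:C against MT control and in 4T1 phenformin against 4T1 control; red points passed an adjusted p of 0.05. The first comparison holds the widest range, from -8.05 for Csn3 to 2.48 for Esr1, the second has Csn3 and Pgr in red, and the third has no red point.

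The MT libraries did not vary by arm alone. In 5 of them, control replicates 1, 2 and 3 and phenformin replicates 1 and 2, Csn3 measured 1568 to 1852 CPM. In the other 11 MT libraries it measured 21.2 to 274.3 CPM, so the ranges lay far apart. These 5 libraries also had the highest Elf5, at 138.6 to 185.8 CPM against 15.8 to 83.7 CPM, and the highest Wap, at 1.05 to 2.13 CPM against 0 to 1.004 CPM.

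Of the members on the hormone-sensing list, Foxa1 and Esr1 ran opposite without overlap. Foxa1 measured 3.82 to 12.2 CPM in the 5 libraries and 15.8 to 104.6 CPM in the other 11, and Esr1 measured 3.08 to 5.44 CPM and 6.09 to 15.3 CPM. Csn2, Lalba, Gata3, Pgr and Prlr overlapped between the 5 and the 11. Prlr, on the same list, leaned the way of Csn3, at 103.0 to 177.4 CPM in the 5 and 26.9 to 108.1 CPM in the 11. Pgr leaned the way of Foxa1, at 0 to 0.424 CPM and 0.312 to 4.095 CPM. Gata3 measured 42.7 to 64.7 CPM and 28.0 to 75.6 CPM. No test was made between these libraries, which were told apart by their Csn3 level and not by a label. The share of all genes that separate between them was not determined, so separation is not read as particular to these members.

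Some genes outside the 10 also moved with this split, while others overlapped. Sox10, a neural crest factor that also marks mammary progenitors, measured 172.6 to 217.9 CPM in the 5 libraries and 0.67 to 33.5 CPM in the other 11. The basal keratin gene Krt5 measured 21.4 to 37.5 CPM and 329.7 to 2451 CPM, and Cd3e, a T cell receptor gene, 7.28 to 13.1 CPM and 16.2 to 120.9 CPM. Lcn2, for lipocalin 2 and on the progenitor and alveolar list as is Sox10, measured 5673 to 6367 CPM and 167.7 to 1808 CPM. Krt8 (214.6 to 272.4 CPM in the 5 and 81.5 to 402.9 CPM in the 11) and Epcam (379 to 589.8 CPM and 182.6 to 963.6 CPM) overlapped. So did the adipocyte gene Adipoq (0.478 to 13.1 CPM and 2.15 to 92.2 CPM), Csn1s1 and Csn1s2a. Over the 15 listed basal and myoepithelial genes together, MT controls summed to between 221.4 and 3715 CPM, and over 14 T cell and innate lymphoid genes to between 95.6 and 675.2 CPM. The part of these cells in the levels of the 10 genes was not tested.

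Phenformin replicate 3 stood between the sets. Its Csn3, at 274.3 CPM, was the highest of the 11, its Sox10 was 33.5 CPM and its Wap 1.004 CPM. Its Krt5 (1610 CPM) and Foxa1 (104.6 CPM, the highest of all MT libraries) were those of the 11.

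The ratio of Csn3 to Csn2 counts restates the split in Csn3 against a casein of the same gene cluster. It was 79.8, 36.6 and 100.3 in control replicates 1, 2 and 3, and 24.4 and 148.6 in phenformin replicates 1 and 2. In the other 11 MT libraries it lay between 0.648 and 2.01, with 1.32 in control replicate 4 and 1.64 and 2.01 in phenformin replicates 3 and 4.

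**Figure D3:**
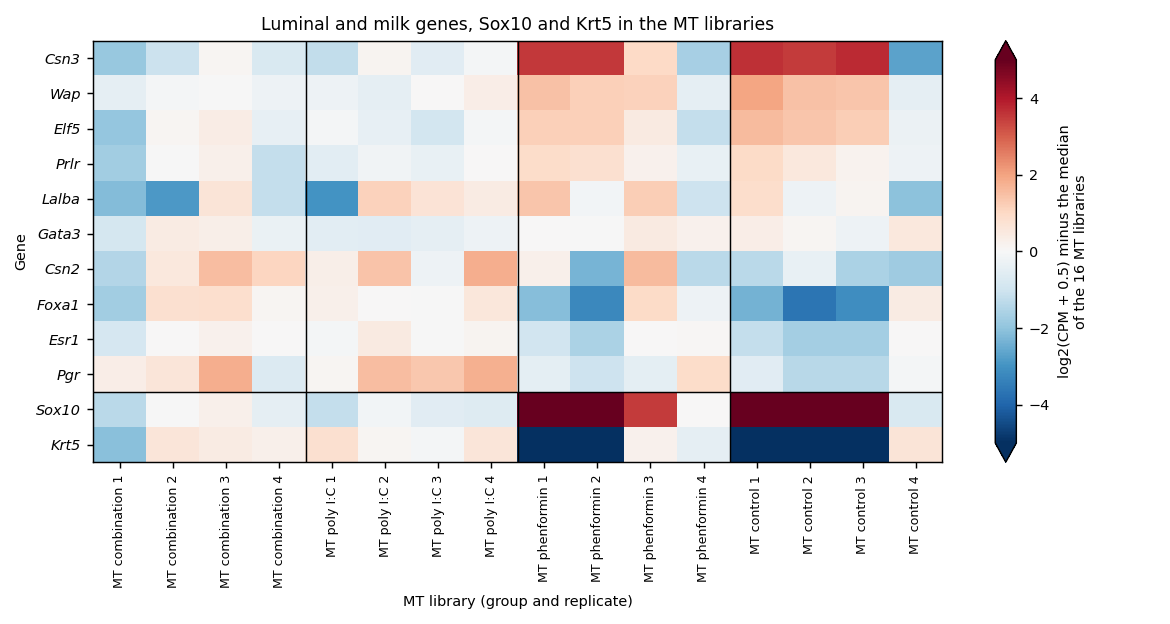
Log2(CPM + 0.5) minus the median of the 16 MT libraries (colour, red higher and blue lower) for the 10 genes, Sox10 and Krt5 (rows) in each MT library (columns, by arm and replicate). Control 1 to 3 and phenformin 1 and 2 share high Csn3, Wap, Elf5 and Sox10 and low Foxa1, Esr1 and Krt5, and control 4 shows none of these colours, with Csn3 at 21.2 CPM and Foxa1 at 73.2 CPM.

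Among the 10 MT libraries with Sox10 at or under 10 CPM, Csn3 and Csn2 rose and fell together, with a Spearman rho of 0.879 across libraries, and Elf5 and Foxa1 with a rho of 0.988. Over all 16 MT libraries, which fall into the separate sets above, neither pair ran together, with a rho of 0.00588 for Csn3 and Csn2 and of -0.326 for Elf5 and Foxa1. Over the 10 libraries both pairs had a higher rho than any other pair of members, the lowest being -0.176 for Csn3 and Gata3. Over these 10 libraries Csn3 ranged from 21.2 to 152.9 CPM and Foxa1 from 15.8 to 97.4 CPM. MT combination 1 had the lowest Elf5 (15.8 CPM) and Prlr (26.9 CPM) of all 16 MT libraries and the lowest Foxa1 (15.8 CPM) of these 10. It also had the highest Igkc, an antibody light chain gene, at 8732 CPM, and the lowest Krt8, at 81.5 CPM, of the 16.

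**Figure D4:**
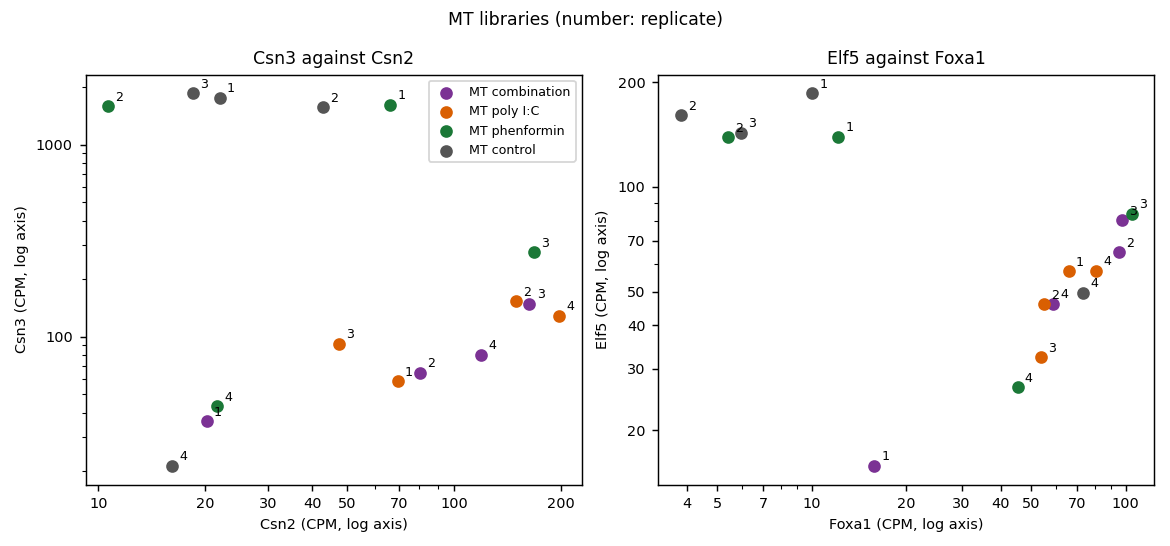
Csn3 against Csn2 (left) and Elf5 against Foxa1 (right), in CPM on log axes, for the 16 MT libraries, coloured by arm and numbered by replicate. Control 1 to 3 and phenformin 1 and 2 lie apart, with Csn3 from 1568 to 1852 CPM and Elf5 from 138.6 to 185.8 CPM, and among the rest the genes of each pair rise together.

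Poly I:C in MT tumours was compared with control. Csn3 fell and Pgr rose, and these were the 2 of 10 genes that passed the threshold, while 19.6% of all 17857 genes tested passed it. Csn3 measured 58.7, 152.9, 91.7 and 128.2 CPM in MT poly I:C, against 1751, 1568, 1852 and 21.2 CPM in MT control. Every poly I:C library lay below control replicates 1 to 3 and above control replicate 4. The log2 fold change was -3.57 ± 1.12 (SE, n = 4 each, edgeR adjusted p = 0.038).

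The direction of the Csn3 change rests on control replicates 1 to 3. Without the MT libraries with Sox10 above 10 CPM, so that control replicate 4 is the only control, the log2 fold change was 2.37. That cut also splits Csn3, at 274.3 to 1852 CPM above it and 21.2 to 152.9 CPM at or under it. The loss of the fall was thus fixed by the choice of libraries. When each library's Krt5 to Sox10 ratio (log2) was added to the model, the log2 fold change of Csn3 was 1.80, with an edgeR adjusted p of 0.1. Csn3 itself followed both genes in MT (Pearson r 0.954 with Sox10 and -0.875 with Krt5), so the ratio carries the same split. With any single library left out other than control replicate 4, the Csn3 fall missed the threshold, with adjusted p-values of up to 0.0926.

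Pgr measured 0.889, 3.35, 2.79 and 3.97 CPM in MT poly I:C, against 0.372, 0, 0 and 0.732 CPM in MT control, with no overlap, from at most 70 counts in a library. This gave a log2 fold change of 3.31 ± 1.06 (SE, n = 4 each, edgeR adjusted p = 0.0424). It was 1.93 (edgeR adjusted p = 0.598) without the MT libraries of high Sox10. With single libraries left out it passed only without control replicate 4 or poly I:C replicate 1, and otherwise had edgeR adjusted p-values of up to 0.113.

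The other casein moved away from Csn3 but was not called. Csn2 measured 69.4, 149.3, 47.4 and 197.8 CPM in MT poly I:C, against 21.9, 42.8, 18.5 and 16.1 CPM in MT control. No library overlapped, and the log2 fold change was 2.24 ± 0.80 (SE, n = 4 each, edgeR adjusted p = 0.0616). Groups did not overlap for 2 of the 10 genes, Csn2 and Pgr, against 25.1% of all genes. An unadjusted p under 0.05 was reached by 7 of the 10, against 35.6% of all genes.

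The remaining members were not called either. Elf5 measured 57.3, 46.0, 32.4 and 57.4 CPM in MT poly I:C, against 185.8, 160.3, 143.0 and 49.6 CPM in MT control (log2 fold change -1.47 ± 0.54, SE, edgeR adjusted p = 0.067). Esr1 measured 10.5, 15.3, 11.2 and 12.4 CPM in MT poly I:C, against 4.57, 3.11, 3.08 and 11.3 CPM in MT control (log2 fold change 1.19 ± 0.45, SE, edgeR adjusted p = 0.0783). In both genes control replicate 4 sat among the poly I:C libraries. Wap had 10 counts over MT poly I:C and 76 over MT control (log2 fold change -2.97 ± 1.14, SE, edgeR adjusted p = 0.0785). Gata3 averaged 38.0 ± 4.00 CPM in MT poly I:C and 59.7 ± 14.0 CPM in MT control (SD, n = 4 each, edgeR adjusted p = 0.0806).

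Foxa1, Prlr and Lalba had wide intervals. The log2 fold change of Foxa1 was 1.48, with a 95% interval of -0.39 to 3.35, that of Prlr -0.66 (-1.44 to 0.13) and that of Lalba 0.44 (-1.46 to 2.33).

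Beside them, 2 of 17 milk genes passed in MT poly I:C, both lower, and the second was Mfge8 at -1.11. In the prolactin list Jak2 (0.91) and the growth factor gene Igf2 (2.88) were higher and Socs2 (-2.25) lower. Of 18 hormone-sensing genes Pgr was higher and Xbp1, a secretory pathway factor gene, lower (-0.99). Of 18 progenitor and alveolar genes Itga2 was higher (2.59), and Sox10 (-6.53), Mfge8, Lcn2 (-3.21) and Csn3 were lower. Of 16 luminal structure genes 0 passed (edgeR). The median log2 fold changes of these lists, in that order, were 0.20, 0.02, 0.55, -0.20 and -0.13, and that of all genes was 0.01. In the same comparison 7 of 12 fibroblast genes were higher, with summed levels of 1800 to 2097 CPM in MT poly I:C against 663.5 to 1170 CPM in MT control, and their part was not tested.

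The MT combination arm shares its controls with the poly I:C comparison. There 0 of 10 genes passed (edgeR), while 6.14% of all genes did, and 6 of the 10 had an unadjusted p under 0.05, with 29.8% of all genes. The groups overlapped for all 10, while 12.2% of all genes did not overlap. DESeq2 called 4 of the 10, with 2969 of all 17857 genes, and limma voom 8, with 9378 of them. Csn3 measured 36.3, 64.9, 148.1 and 80.4 CPM in MT combination, against the same controls (log2 fold change -3.97 ± 1.14, SE, edgeR adjusted p = 0.0524). Wap had 6 counts over MT combination and 76 over MT control (log2 fold change -3.62 ± 1.21, SE, edgeR adjusted p = 0.0785). Pgr measured 1.16, 1.47, 4.09 and 0.312 CPM in MT combination (log2 fold change 2.66 ± 1.06, SE, edgeR adjusted p = 0.119), and Foxa1 15.8, 95.4, 97.4 and 58.7 CPM (log2 fold change 1.54 ± 0.96, SE, edgeR adjusted p = 0.284).

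Without MT control 4, 6 of the 10 genes passed in the MT poly I:C comparison and 6 in the MT combination comparison. With any other single library of the groups left out, the count was 0 or 1 for poly I:C and 0 for the combination. Calls moved across the whole table as well, with 1512 to 6256 genes over the fits with a library left out for poly I:C and 19 to 5375 for the combination.

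Phenformin in MT tumours gave no called gene among the 10 or among all 17857 genes, and 0 of the 10 had an unadjusted p under 0.05 (edgeR), by which 6.07% of all genes passed. All 10 overlapped between the groups, where 2.69% of all genes did not. DESeq2 and limma voom also called 0 of the 10. As in MT control, the MT phenformin libraries fell on both sides of the split. Csn3 measured 1615, 1583, 274.3 and 43.4 CPM in MT phenformin, and its log2 fold change was -0.56, with a 95% interval of -2.55 to 1.42. Csn2 measured 66.1, 10.7, 167.7 and 21.6 CPM, Elf5 139.2, 138.6, 83.7 and 26.6 CPM, and Foxa1 12.2, 5.40, 104.6 and 45.3 CPM in MT phenformin replicates 1 to 4. Replicates 1 and 2 were high in Csn3 and Elf5 and low in Foxa1, and replicate 4 the reverse. Replicate 3 was highest in Foxa1 and stood between the others in Csn3 and Elf5. The interval of Gata3, the narrowest of the 10, was -0.49 to 0.47, and that of Prlr -0.72 to 0.85.

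The combination in MT was also set against each single agent. Against poly I:C alone 0 of 10 genes passed (edgeR), as did 0 of all genes, and 0 of the 10 had an unadjusted p under 0.05, against 6.03% of all genes, while DESeq2 called 0, with 4 of all genes, and limma voom 1, with 973. The log2 fold change of Csn3 was -0.40 (95% interval -2.39 to 1.58). Against phenformin alone 0 of 10 passed (edgeR), with 0.106% of all genes, 3 of the 10 had an unadjusted p under 0.05, against 13.2% of all genes, and DESeq2 called 1, with 267 of all genes, and limma voom 4, with 5486. That of Csn3 was -3.41 ± 1.11 (SE, n = 4 each, edgeR adjusted p = 0.268). The interaction of the agents in MT called 0 of 10 and 0 of all genes, and 0 of the 10 had an unadjusted p under 0.05 (edgeR), by which 9.91% of all genes passed. In neither comparison with a single agent did a member separate without overlap, where 6.07% of all genes did against poly I:C and 4.09% against phenformin.

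In 4T1 tumours the milk genes were near the limit of detection in every arm, and Csn2, Wap and Lalba did not pass the filter on low counts, so 7 of the 10 genes were tested. Over all 15 libraries Csn2 had 16 counts, Wap 3 and Lalba 49. Csn2 had 0 counts in all 4 combination libraries. Csn3 alone of the milk genes was counted in every 4T1 library, at 1.05 to 12.8 CPM.

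Poly I:C in 4T1 called 0 of the 7 tested genes, against 6.32% of all 17445 genes, and 1 of the 7 had an unadjusted p under 0.05 (edgeR), against 23.9% of all genes. All 7 overlapped between the groups, where 12.7% of all genes did not. The gene with the low unadjusted p was Gata3, at 78.2, 94.0, 66.8 and 123.2 CPM in 4T1 poly I:C and 134.6, 109.9, 100.9 and 133.7 CPM in 4T1 control (log2 fold change -0.38 ± 0.17, SE, edgeR adjusted p = 0.2). Csn3 measured 1.31, 1.32, 12.8 and 2.52 CPM in 4T1 poly I:C, so that replicate 3 stood above every control and the others below. Its interval was -1.53 to 1.35 on the log2 scale, and that of Esr1 -0.45 to 0.31. In the lists around them few genes were called. Of 9 tested milk genes 1 was higher, the lipid droplet gene Plin2 (log2 fold change 0.63), and 0 lower. Of 17 prolactin signalling genes Tnfsf11, for the progesterone-induced paracrine factor RANKL, was higher (2.23) and Cish, a Stat5 target, lower (-1.003). Of 17 hormone-sensing genes Tnfsf11 was the 1 called. Of 16 progenitor and alveolar genes Itga2 was higher (1.66) and Trf, for the iron carrier transferrin, lower (-1.15). Of 16 luminal structure genes Spint1 (-0.66) and Prom2 (-1.36) were lower, and of 14 basal genes 4 were higher. None of these calls remained without the 4T1 libraries with Acta1 above 10 CPM, where 0 of 17540 genes passed (edgeR). That fit kept only poly I:C replicates 1 and 4, so the loss of libraries and their muscle content cannot be told apart. Without the libraries with Igkc above 100 CPM, 259 of 17422 genes passed.

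Phenformin in 4T1 called no gene at all, of 17445, but 3 of the 7 tested members had an unadjusted p under 0.05 (edgeR), against 10% of all genes. Groups did not overlap for 4 of the 7, all lower with phenformin, against 11.6% of all genes. Foxa1 measured 0.978, 0.990 and 1.07 CPM in 4T1 phenformin, against 2.31, 3.38, 2.18 and 3.85 CPM in 4T1 control, from 14 to 19 counts a library with phenformin. The log2 fold change was -1.53 ± 0.42 (SE, n = 3 and 4, edgeR adjusted p = 0.236).

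Elf5 measured 0.0699, 0.260 and 0.627 CPM in 4T1 phenformin, against 1.397, 0.655, 0.850 and 1.68 CPM in 4T1 control (log2 fold change -1.80 ± 0.75, SE, edgeR adjusted p = 0.435). Pgr had 0, 2 and 1 counts in 4T1 phenformin and 12, 10, 34 and 5 counts in 4T1 control (log2 fold change -3.66 ± 1.15, SE, edgeR adjusted p = 0.289). Prlr measured 1.19, 3.70 and 5.39 CPM in 4T1 phenformin, against 6.61, 9.39, 10.2 and 9.56 CPM in 4T1 control (log2 fold change -1.38 ± 0.90, SE, edgeR adjusted p = 0.662). The abundant members overlapped between the groups. Gata3 averaged 96.4 ± 17.3 CPM in 4T1 phenformin (n = 3) and 119.8 ± 17.0 CPM in 4T1 control (SD, n = 4), and Esr1 averaged 30.3 ± 2.86 CPM in 4T1 phenformin (n = 3) and 30.6 ± 3.83 CPM in 4T1 control (SD, n = 4). Summed levels of 12 fibroblast genes were 2120 to 2656 CPM in 4T1 phenformin and 3314 to 5093 CPM in 4T1 control, and those of 12 adipocyte genes 92.3 to 160.1 CPM and 114.1 to 474.1 CPM. Of either list 0 genes passed (edgeR), and the part of these cells was not tested.

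The 4T1 combination called 0 of 7 members and 0 of all genes against control (edgeR), and 0 of 7 against poly I:C, where 0.246% of all genes passed. It called 0 of 7 and 0 of all genes against phenformin (edgeR), and 0 of 7 in the interaction, where 0 of all genes passed too. The number of the 7 with an unadjusted p under 0.05 was 1, 2, 2 and 3 in these comparisons in turn, against 11.9%, 19.6%, 12.5% and 9.33% of all genes. Without overlap stood 0, 0 and 1 of the 7 against control, poly I:C and phenformin, where 8.58%, 8.6% and 12.4% of all genes did. DESeq2 and limma voom called 0 of the 7 in each 4T1 comparison, poly I:C and phenformin included. Pgr, with 2, 6, 0 and 1 counts in 4T1 combination, had a log2 fold change of -2.56 ± 0.91 against control (SE, edgeR adjusted p = 0.269). Prlr spread widest in 4T1 combination, at 0.328, 6.83, 26.2 and 3.15 CPM, against 6.61 to 10.2 CPM in 4T1 control. Foxa1 measured 2.04, 2.14, 4.22 and 1.09 CPM in 4T1 combination, all above the 3 phenformin libraries (log2 fold change 1.24 ± 0.42 against phenformin, SE, edgeR adjusted p = 0.291).

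The responses were compared between models in a fit of all 31 libraries. The combination response of Pgr was lower in 4T1 than in MT, with a log2 difference of -5.22 ± 1.46 (SE, edgeR adjusted p = 0.0414), and Pgr was the 1 of 10 genes called, while 4.56% of all genes were. It had 2, 6, 0 and 1 counts in 4T1 combination and 12, 10, 34 and 5 in 4T1 control, and 19, 24, 71 and 5 in MT combination and 7, 0, 0 and 9 in MT control. The difference was -3.88 (edgeR adjusted p = 0.448) without the MT libraries of high Sox10, and -4.86 (edgeR adjusted p = 0.185) without the 4T1 libraries with the muscle gene Acta1 above 10 CPM. The fit without high Acta1 kept only combination replicates 2 and 3 in 4T1. After Pgr, Csn3 came next, with a difference of 4.36 ± 1.37 (SE, edgeR adjusted p = 0.0597). The poly I:C response called 0 of 10 members, with 11.1% of all genes, and the phenformin response 0 of 10 and 0 of all genes (edgeR). Of the 10, 3 and 1 had an unadjusted p under 0.05 in these responses, against 26.9% and 7.35% of all genes, and 2 had one in the combination response, against 25.5%. For poly I:C, DESeq2 called 1 of the 10 and 2960 of all 18956 genes, and limma voom 3 and 8119. For phenformin both called 0 of the 10.

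The genes most like each member in pattern were ranked by Spearman rho of log2 CPM within a model, as a description over libraries that share arms and, in MT, the split above. In MT, Csn3 ran closest to the folate receptor gene Folr1 (rho 0.974 over 16 libraries, 0.903 over the 10 with low Sox10), Elf5 to Emid1 (0.991 and 0.988), Foxa1 to Padi1 (0.976 and 0.988) and Prlr to the luminal mucin gene Muc1 (0.965 and 0.891). Esr1 ran closest to Fcgbp (0.950), Pgr to Tgs1 (0.956), Gata3 to Cmtm8 (0.921), Csn2 to Lgals3bp (0.847) and Lalba to Ppia (0.841).

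In 4T1, over 15 libraries, Esr1 ran closest to Fblim1 (rho 0.968), Prlr to the growth factor gene Ptn (0.957), Gata3 to Gm13610 (0.929), Foxa1 to the extracellular matrix gene Frem1 (0.868) and Csn3 to Slc35f6 (0.782). Among the members themselves, Foxa1 and Prlr had a rho of 0.843, Elf5 and Foxa1 of 0.825 and Csn3 and Elf5 of 0.761 in 4T1. Elf5 also ran with Sox10 there (0.836), and Gata3 with Krt8 (0.786), although Sox10 stayed between 0.0699 and 2.23 CPM in 4T1.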

How the data were processed

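The authors deposited raw counts per gene for 31 libraries. Per the submitters' processing notes, Trimmomatic 0.32.48, STAR 2.3.0 and featureCounts 1.4.4 were used with mm10/GRCm38. Per the labels' protocols, RNA was purified with RNeasy columns and made into strand-specific poly(A) libraries, while the annotation release and the strand setting of the counting are not given in the sources used here.

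Counts were fitted with edgeR 4.0.16 (R 4.3.3) by quasi-likelihood with TMM scaling, once per model and once over all 8 groups, keeping genes past filterByExpr (minimum count 10, total 15). P-values were adjusted by Benjamini-Hochberg over all genes tested, at 0.05. A standard error is the log2 fold change divided by the root of the F statistic. A 95% interval uses it with a normal multiplier, so it is somewhat narrower than the test itself implies. Levels are TMM-scaled CPM, and levels per kb use exon lengths of GENCODE vM21. The fit was checked on simulated counts. Alternatives were DESeq2 1.42.0, limma 3.58.1 (voom with quality weights), other scaling, filters, a replicate block and single libraries left out. No 2 replicates agreed within counting noise. The named genes are the 10 members and genes of lists around them, and the members and lists were chosen with earlier results of these data known.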

Additional observations from a re-analysis of the deposited data

Results flagged for a closer look

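Of 68 group-and-gene sets of 4 libraries, 8 held a library far from the other 3. The cut allows about 1 in 20 for independent, normally distributed values. That rate does not apply here, because the sets share libraries and some hold only a few counts. A lone count against libraries at 0 is always flagged. In MT control, replicate 4 had 21.2 CPM of Csn3, where the others had 1568 to 1852 CPM, and 73.2 CPM of Foxa1, where the others had 3.82 to 10.04 CPM. In 4T1 poly I:C, replicate 3 had 12.8 CPM of Csn3 (others 1.31 to 2.52 CPM), 1.79 CPM of Pgr (others 0.178 to 0.361 CPM) and 0.0638 CPM of Wap from 1 count (others 0). Replicate 2 of the same group had 0 CPM of Csn2, where the others had 0.119 to 0.128 CPM from 2 counts each. In 4T1 combination, replicate 1 had 0.0657 CPM of Wap from 1 count (others 0). In MT phenformin, replicate 4 had 1.97 CPM of Pgr, where the others had 0.140 to 0.430 CPM.

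The combination response of Pgr differed between the models, lower in 4T1 than in MT by a log2 difference of -5.22 (edgeR adjusted p = 0.0414). It rests on few counts, 9 in 4T1 combination and 61 in 4T1 control, and 119 in MT combination and 16 in MT control.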

How the results depend on the processing

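The number of the 10 genes called in 4T1 controls against MT controls, 9, stayed between 8 and 10 except without the MT libraries with Sox10 above 10 CPM, where it was 5. That alternative, the Krt5 to Sox10 covariate and the fits without libraries of high Acta1 or Igkc were chosen after seeing the data, and a lone MT control is then assumed to vary like the other groups.

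For MT poly I:C against control, 2 genes became 5 with DESeq2, 9 with limma voom, 5 with only the groups compared, 1 with no filter on low counts, 1 with the replicate block, 0 with the covariate, 0 without the high Sox10 libraries and 0 to 6 with single libraries left out. Csn3 reversed there, to 1.80 with the covariate and 2.37 without the high Sox10 libraries, and the cause was not tested. Both settings follow the split in Csn3 itself. For MT combination against control, 0 became 4 with DESeq2, 8 with limma voom and 0 to 6 with single libraries left out. MT combination against phenformin gave 1 with DESeq2 and 4 with limma voom in place of 0, and against poly I:C 1 with limma voom. The poly I:C response gave 1 with DESeq2, 3 with limma voom and 0 to 4 with libraries left out, in place of 0. The combination response, 1 gene, became 3 with DESeq2, 5 with limma voom, 0 with no filter, with the replicate block and without the high Acta1, Igkc or Sox10 libraries, and 0 to 4 with single libraries left out. 4T1 combination against poly I:C and 4T1 poly I:C against control gave 0 to 1, the 1 being Gata3 without 4T1 poly I:C replicate 4.

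Among all genes, 3500 called in MT poly I:C against control became 10642 with limma voom, 1568 with the covariate, 0 without the high Sox10 libraries and 1512 to 6256 with libraries left out. For the combination response, 864 became 2104 with DESeq2, 7366 with limma voom, 465 with no filter, 447, 48 and 3 without the high Igkc, Acta1 and Sox10 libraries, and 230 to 4474 with libraries left out. For MT combination against control 1096 became 19 to 5375, for 4T1 combination against poly I:C 43 became 1 to 1412 with libraries left out, and for 4T1 phenformin against control 0 became 174 with DESeq2.

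Replicate numbers showed no steady pairing of the libraries. Same-numbered libraries of different arms had a correlation over 0.1 in 6 of 21 pairs in 4T1 and 12 of 24 in MT. The MT pairs ranged from -0.806 to 0.781 (median 0.104), and differently numbered MT pairs from -0.869 to 0.794. With the block, both genes called in MT poly I:C missed the threshold, Csn3 (-3.08, edgeR adjusted p = 0.104) and Pgr (3.41, edgeR adjusted p = 0.0542), and the 1 called was Esr1 (1.33, edgeR adjusted p = 0.0461). Foxa1 in 4T1 controls against MT controls was lost too (-1.97, edgeR adjusted p = 0.132), and Pgr in the combination response came to -5.20 (edgeR adjusted p = 0.0535). Counts of a few reads limit Wap, Csn2 and Lalba in 4T1 and Pgr in both models.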
